A study of Mus musculus with 8 samples.

Results

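The genes of sterol and fatty acid synthesis that are driven by the sterol regulatory element-binding proteins (SREBPs) were described in dendritic cells sorted from mouse tumours. The set was a fixed list of 31 gene symbols out of the 24369 in the deposited count table. It held 20 genes of the cholesterol branch (17 enzymes and 3 genes of sterol sensing and transport) and 11 of the fatty acid branch (10 enzymes and 1 regulator). All 31 were in the table, and all 31 were among the 11394 genes with enough counts to be tested.

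Conventional dendritic cells of type 1 (cDC1, which specialise in cross-presenting antigen to CD8 T cells) and of type 2 (cDC2, which mainly present antigen to CD4 T cells) were obtained by fluorescence-activated sorting from tumours of MC38-EGFP, a mouse colon carcinoma line that carries enhanced green fluorescent protein (EGFP). Each subset was divided into cells without and with EGFP signal, which is commonly read as a mark of cells that took up tumour material. The labels give a WT genotype to every group, so that the 4 groups share the host genotype and the tumour line and differ in subset and EGFP signal. There were 8 libraries, 2 for each fraction of each subset. The labels give no mouse strain, age or treatment, although the title of the series names the drug sitagliptin, and their cell type field reads "Colon cancer" for every sorted dendritic cell library. They do not say whether replicates came from separate animals, so p-values measure only the spread between these libraries, which may be technical. In sorted bulk RNA, fewer cells of a type and less RNA per cell cannot be told apart.

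Cholesterol is built from acetyl-CoA through the mevalonate pathway to the isoprenoids, then to squalene, lanosterol and cholesterol. When sterols in the endoplasmic reticulum run low, SREBPs travel to the Golgi, are cut, and enter the nucleus, where SREBP2 (encoded by Srebf2) mainly activates the cholesterol genes and SREBP1 (encoded by Srebf1) mainly activates the genes of fatty acid synthesis and desaturation. INSIG proteins hold the SREBP complex back when sterols are plentiful, and immune cells are known to tune both branches to growth, membrane demand and inflammatory signals.

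The short element that SREBPs bind in sterol-regulated promoters was looked for in the members of both branches. RefSeq promoters (GRCm38.p6, 250 bases before to 50 bases after the start site) were matched by symbol for 24 of the 31 members, and Fads1, Fdft1, Fdps, Scd1, Scd2, Sqle and Stard4 were not matched. The form TCACNCCA, searched on both strands, was present for 3 of the 24 members (12.5%) and for 4.97% of all 27025 genes in the table. The stretches before the start site that hold it are shown in the direction of transcription for Hmgcs1 and Srebf2, ended where a transcript begins in either annotation, and as 30 bases for Msmo1. The capitals mark the element.
Hmgcs1: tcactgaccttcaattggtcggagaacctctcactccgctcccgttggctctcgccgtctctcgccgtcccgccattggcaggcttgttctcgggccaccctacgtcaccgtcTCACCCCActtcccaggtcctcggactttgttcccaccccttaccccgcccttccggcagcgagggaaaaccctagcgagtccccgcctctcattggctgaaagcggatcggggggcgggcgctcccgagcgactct
Srebf2: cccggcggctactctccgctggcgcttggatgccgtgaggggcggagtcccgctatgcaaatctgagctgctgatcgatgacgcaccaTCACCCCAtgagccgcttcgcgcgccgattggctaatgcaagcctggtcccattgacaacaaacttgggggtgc
Msmo1: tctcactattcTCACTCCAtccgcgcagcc

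The Hmgcs1 stretch lies at chr13:119690101-119690350 on the plus strand, and its element begins 137 bases before the RefSeq start. The Srebf2 stretch lies at chr15:82147019-82147180 on the plus strand, with the element 162 bases before the RefSeq start. In GENCODE M21 Srebf2 starts at chr15:82147181, nearer to the element. The Msmo1 bases lie at chr8:64733737-64733766 on the minus strand, with the element 177 bases before the RefSeq start. In GENCODE M21 the Msmo1 gene (chr8:64718139-64733792) starts further upstream, so these 30 bases lie inside it. The letters CCAAT, the form bound by NF-Y, a partner of SREBPs, were found on either strand for 20 of the 24 members (83.3%) and 41.1% of all genes. GGGCGG, a form bound by Sp1, was found for 19 (79.2%) and 38.2%, and the E-box form TCACGTGA for 0 of 24 and 1.12%. No match in the printed stretches overlaps another, and a match is a description of letters only.

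Library totals ran from 17869441 to 22195681 counts, and levels are given as CPM (a library's counts scaled to a common total with TMM factors), always with replicate 1 before replicate 2. A count of 0 in a library allows up to 3 counts, or 0.131 to 0.211 CPM, for counting error only. The ribosomal RNA symbol Rn45s took 19.4% to 35.6% of counts. EGFP-positive cDC1 stood apart: its libraries had 8553 and 8208 genes with a count against 9602 to 11922 in the other 6, and the correlation of log2(CPM + 1) between its replicates was 0.629 against 0.850 to 0.898 in the other groups. The cDC1 identity list (10 genes, with Xcr1 and Clec9a) summed to 7668 and 6553 CPM in EGFP-negative cDC1, 3420 and 3994 CPM in EGFP-positive cDC1, and 379 to 923 CPM in the 4 cDC2 libraries. Its lower level in both EGFP-positive cDC1 libraries goes with the EGFP comparison in cDC1, and its part in the results there was not tested. In the cDC2 libraries the genes shared by conventional dendritic cells summed to only 1.88 to 16.7 CPM. Zbtb46, a defining transcription factor of these cells, was at 0 to 1.04 CPM there, and the macrophage and monocyte list summed to 28351 to 56988 CPM. The cDC2 identity list (8 genes) summed to 507 to 662 CPM there and 32.9 to 285 CPM in the cDC1 libraries. These markers do not match a population of cDC2 alone, so cDC2 stands here for the labelled sort gate. Tumour epithelial genes (8 listed) summed to 1.54 and 26.0 CPM in EGFP-negative cDC1 and 0.525 and 49.3 CPM in EGFP-positive cDC1. The 49.3 CPM, the highest of any library, came from 1 gene. Krt8 and Cldn4 were at 0 counts in all 8 libraries, and Epcam at 0 in both EGFP-positive cDC1 libraries.

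The cholesterol branch was several-fold more abundant in 1 library than in any other, EGFP-positive cDC1 replicate 1, and the fatty acid branch was not. Summed over its 20 genes, the cholesterol branch reached 604 and 679.7 CPM in EGFP-negative cDC1, 3018 and 689 CPM in EGFP-positive cDC1, 397 and 536 CPM in EGFP-negative cDC2, and 375 and 498 CPM in EGFP-positive cDC2. The highest library was 4.38-fold above the next, and the next was the other library of the same group. Without Fdps, the most abundant member there, the sum in that library was 2218 CPM, which was 4.40-fold above the next library.

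Fatty acid genes, over 11 members, summed to 170.1 and 247 CPM in EGFP-negative cDC1, 312 and 209 CPM in EGFP-positive cDC1, 143 and 172 CPM in EGFP-negative cDC2, and 144 and 186 CPM in EGFP-positive cDC2. The highest of these was 1.26-fold above the next. Both branches were therefore highest in the same library, with a far wider gap in the cholesterol branch.

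**Figure D1:**
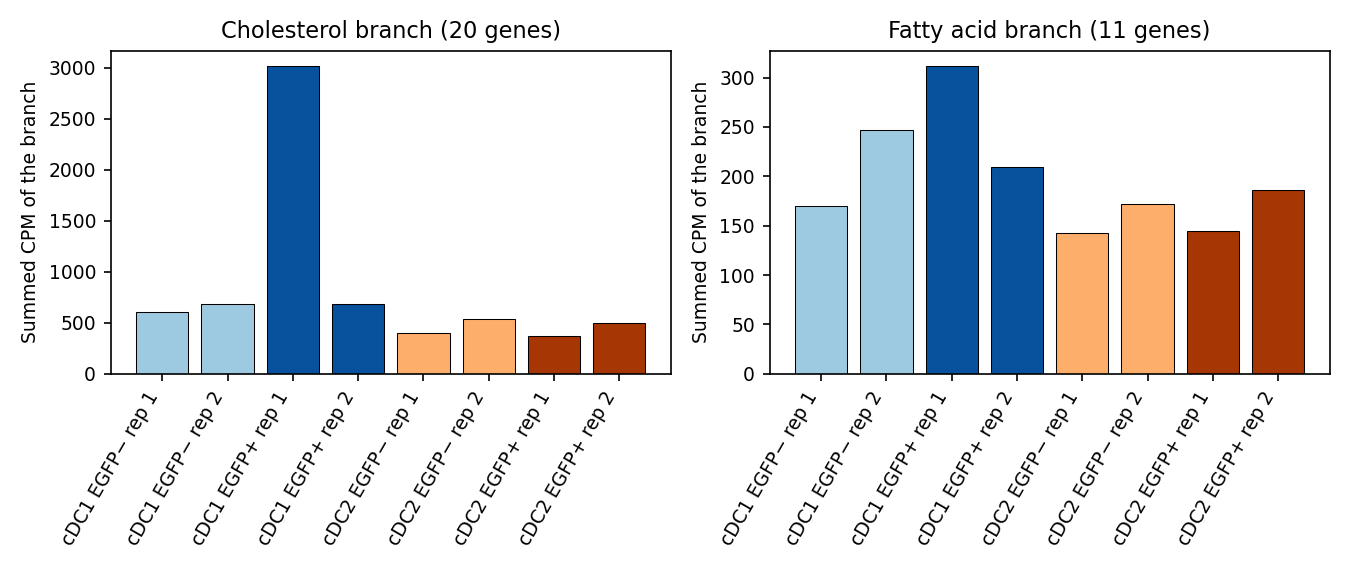
Summed level of the cholesterol branch (20 genes, left) and of the fatty acid branch (11 genes, right) in each of the 8 libraries, in CPM; each bar is 1 library and both axes start at 0. EGFP-positive cDC1 replicate 1 reaches 3018 CPM in the cholesterol branch against at most 689 CPM elsewhere, and 312 CPM in the fatty acid branch against at most 247 CPM elsewhere.

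By gene, 15 of the 20 cholesterol members had their highest level of all 8 libraries in EGFP-positive cDC1 replicate 1, where 17.9% of all genes tested did. For 13 of the 20 this level was at least 2-fold above every other library, against 6.84% of all genes tested. The median log2 ratio of that library to the median of the other 7 was 2.49 over the cholesterol branch and −0.22 over all genes tested. In the fatty acid branch 4 of 11 members were highest there, with the same 4 at least 2-fold above the others, and the median log2 ratio was 0.27. Since 1 library carries it, this pattern has no replicate and no test.

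Other contents of that library differed from its replicate too. The macrophage and monocyte list summed to 478 CPM in EGFP-positive cDC1 replicate 1 and 13382 CPM in replicate 2, against 2295 to 3481 CPM in EGFP-negative cDC1, and the list of mature regulatory dendritic cells summed to 748 and 6407 CPM (Ccr7, the lymph node homing receptor, at 368 and 5498 CPM). Fibroblast genes had 136 CPM in replicate 1 and 2.95 CPM in replicate 2. In replicate 1 they came from Col3a1 at 90.8 CPM and Col1a2 at 40.7 CPM, with Dcn and Lum at 0. Cell cycle genes had 546 and 187 CPM, both below the 731 and 1082 CPM of EGFP-negative cDC1. The part of these differences in the cholesterol pattern was not tested.

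**Figure D2:**
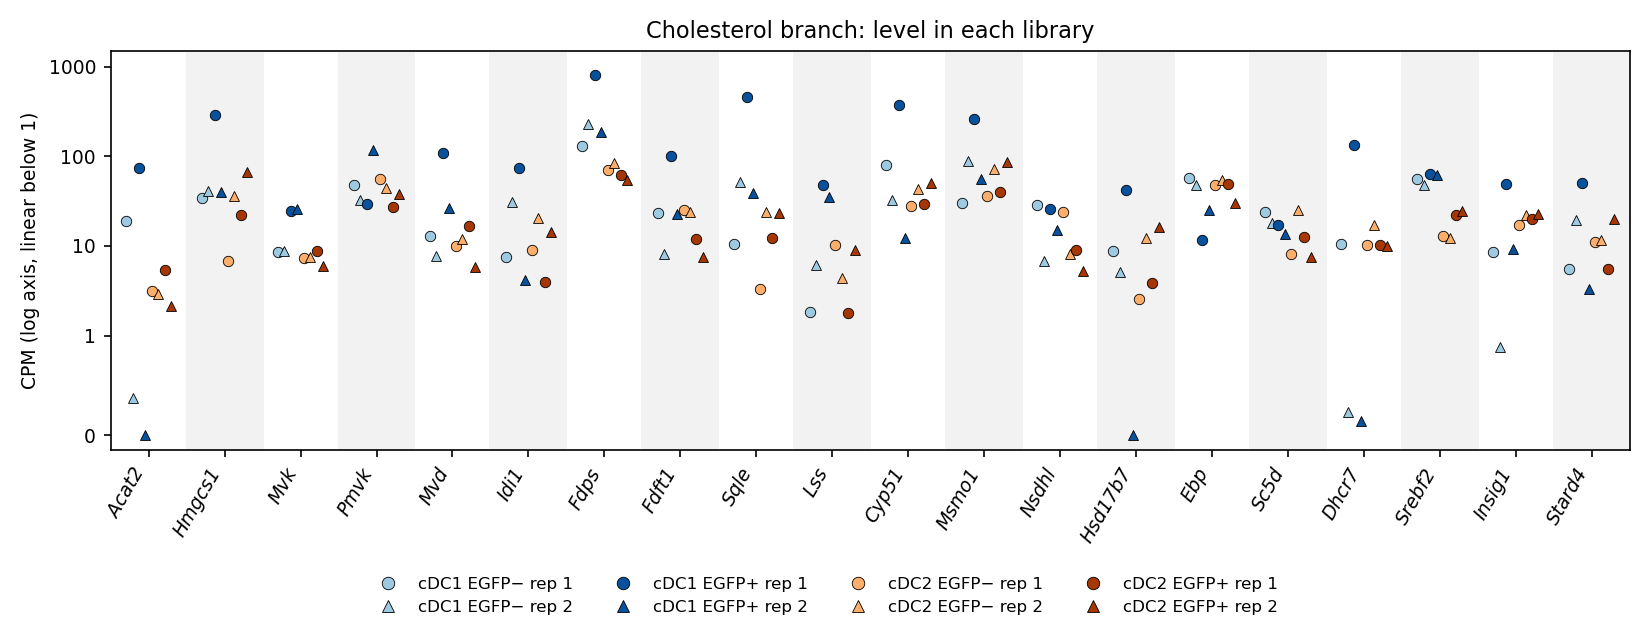
CPM of the 20 cholesterol members in each library, on a log axis that is linear below 1 CPM; circles are replicate 1 and triangles replicate 2. The dark blue circle, EGFP-positive cDC1 replicate 1, is the highest of the 8 for 15 of the 20 genes, while Mvk, Pmvk, Nsdhl, Ebp and Sc5d are higher in another library.

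Along the pathway, the first steps make and reduce the mevalonate backbone. Hmgcs1, the cytosolic enzyme that makes HMG-CoA from acetyl-CoA units (chr13:119690379-119708260, GRCm38), was at 34.2 and 40.8 CPM in EGFP-negative cDC1, 286 and 39.5 CPM in EGFP-positive cDC1, 6.84 and 35.7 CPM in EGFP-negative cDC2, and 22.2 and 66.5 CPM in EGFP-positive cDC2. Apart from the single value of 286 CPM, the levels of the 4 groups overlapped. Acat2, which condenses acetyl-CoA in the cytosol, had group means of 9.56 ± 12.99 and 36.6 ± 51.8 CPM in EGFP-negative and EGFP-positive cDC1 (SD, n = 2, as for all group means here) and 3.06 ± 0.17 and 3.77 ± 2.32 CPM in the cDC2 fractions.

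Mevalonate is then phosphorylated and decarboxylated. Mvk, mevalonate kinase, had close replicates in both cDC1 groups, at 8.66 ± 0.016 CPM in EGFP-negative and 25.2 ± 0.63 CPM in EGFP-positive cDC1, with 7.42 ± 0.21 and 7.39 ± 1.91 CPM in cDC2. Its log2 difference of EGFP-positive against EGFP-negative cDC1 was 1.54 ± 0.99 (SE) at an adjusted p of 0.495 in edgeR and an adjusted p of 0.00202 in DESeq2. Mvd, which decarboxylates the diphosphate, stood at 13.04 and 7.69 CPM in EGFP-negative cDC1, 108 and 26.2 CPM in EGFP-positive cDC1, 9.97 and 11.9 CPM in EGFP-negative cDC2, and 16.7 and 5.79 CPM in EGFP-positive cDC2. Both EGFP-positive cDC1 values of Mvd lay above the other 6. Pmvk, phosphomevalonate kinase, went the other way between the replicates, with its highest level in EGFP-positive cDC1 replicate 2 (72.6 ± 61.5 CPM in that group against 32.4 to 50.01 CPM as the means of the others).

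Farnesyl diphosphate, the branch point to sterols, dolichol and prenylated proteins, is made by Fdps (chr3:89093588-89101959), and Fdps was the most abundant member. Its level was 129.7 and 227 CPM in EGFP-negative cDC1, 800.1 and 184 CPM in EGFP-positive cDC1, 69.8 and 83.4 CPM in EGFP-negative cDC2, and 62.3 and 53.9 CPM in EGFP-positive cDC2. Every cDC1 library was above every cDC2 library. Idi1, which isomerises isopentenyl diphosphate ahead of it, had group means of 19.1 ± 16.5 and 38.6 ± 48.6 CPM in cDC1 and 14.7 ± 7.91 and 9.11 ± 7.22 CPM in cDC2.

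Fdft1 and Sqle commit the pathway to sterols. Fdft1, squalene synthase, was measured at 23.0 and 8.20 CPM in EGFP-negative cDC1, 99.8 and 22.5 CPM in EGFP-positive cDC1, 25.3 and 23.6 CPM in EGFP-negative cDC2, and 11.9 and 7.43 CPM in EGFP-positive cDC2. It shares 774 exonic bases with Ctsb on the opposite strand, and the use of strand in counting is not given in the sources used here, so its reads and those of Ctsb cannot be told apart there. Sqle, squalene epoxidase and a rate-limiting step (chr15:59315077-59331192), had 10.6 and 51.2 CPM in EGFP-negative cDC1, 455 and 39.2 CPM in EGFP-positive cDC1, 3.34 and 24.0 CPM in EGFP-negative cDC2, and 12.1 and 23.0 CPM in EGFP-positive cDC2. The value of 455 CPM was 8.88-fold above the next library, the widest such gap among the 31 members. The other EGFP-positive cDC1 value, 39.2 CPM, lay within the EGFP-negative cDC1 range and above all 4 cDC2 values.

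Lss, which closes squalene epoxide to lanosterol, was at 1.82 and 6.15 CPM in EGFP-negative cDC1, 48.2 and 34.7 CPM in EGFP-positive cDC1, 10.3 and 4.36 CPM in EGFP-negative cDC2, and 1.77 and 9.11 CPM in EGFP-positive cDC2. Like Mvd and Mvk, it was higher in both EGFP-positive cDC1 libraries than in the other 6, and it shares 381 exonic bases with 4930483K19Rik on the opposite strand. After lanosterol, Cyp51 and Msmo1 remove methyl groups, and their group means in EGFP-positive cDC1 were 191 ± 252 and 158 ± 144 CPM against 35.9 to 55.6 and 53.8 to 63.1 CPM elsewhere. Dhcr7, which makes cholesterol from 7-dehydrocholesterol, had 66.0 ± 93.2 CPM there against 5.42 to 13.5 CPM elsewhere, and Hsd17b7, a sterol ketoreductase, 20.9 ± 29.5 against 6.96 to 10.1 CPM. For these 4 genes the SD of the group exceeded or nearly equalled its mean.

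The late enzymes Nsdhl, Ebp and Sc5d were not highest in EGFP-positive cDC1 replicate 1. Nsdhl, which takes part in C4 demethylation, had 28.8 and 6.76 CPM in EGFP-negative cDC1, 26.1 and 15.1 CPM in EGFP-positive cDC1, 23.8 and 8.15 CPM in EGFP-negative cDC2, and 8.90 and 5.30 CPM in EGFP-positive cDC2. Ebp, the sterol isomerase, was lower in both EGFP-positive cDC1 libraries, with 57.1 and 47.4 CPM in EGFP-negative cDC1, 11.7 and 25.3 CPM in EGFP-positive cDC1, 47.4 and 54.0 CPM in EGFP-negative cDC2, and 49.5 and 29.9 CPM in EGFP-positive cDC2. Those Ebp values of 11.7 and 25.3 CPM were the lowest of the 8. Sc5d, the C5 desaturase, had group means from 9.99 to 21.0 CPM, and its EGFP-positive cDC1 libraries lay between those of EGFP-negative cDC1 above and those of EGFP-positive cDC2 below.

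Among the genes that sense and move sterols, Srebf2 (chr15:82147181-82205379) differed most evenly between the subsets. It had 56.4 and 47.4 CPM in EGFP-negative cDC1, 62.8 and 61.3 CPM in EGFP-positive cDC1, 12.8 and 12.3 CPM in EGFP-negative cDC2, and 22.3 and 24.5 CPM in EGFP-positive cDC2. No Srebf2 value in cDC1 came near those in cDC2, and EGFP-positive cDC1 replicate 1 did not stand apart from its replicate. Insig1, the sterol-regulated anchor of the SREBP complex, had 8.51 and 0.886 CPM in EGFP-negative cDC1, 49.4 and 9.33 CPM in EGFP-positive cDC1, 17.3 and 21.9 CPM in EGFP-negative cDC2, and 19.99 and 22.7 CPM in EGFP-positive cDC2. Its 4 cDC2 values fell within a narrow band, and its cDC1 values lay on either side of that band. Stard4, a cytosolic sterol carrier, had group means of 12.5 ± 9.98 and 26.7 ± 33.1 CPM in cDC1 and 11.4 ± 0.37 and 12.6 ± 10.1 CPM in cDC2.

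In the fatty acid branch, Acly and Acss2 supply cytosolic acetyl-CoA, from citrate and from acetate. Acly had 45.8 and 48.1 CPM in EGFP-negative cDC1, 84.3 and 99.6 CPM in EGFP-positive cDC1, 80.0 and 64.9 CPM in EGFP-negative cDC2, and 52.7 and 50.9 CPM in EGFP-positive cDC2. Its replicates were close in every group, and the EGFP-positive libraries were above the EGFP-negative ones in cDC1 and below them in cDC2. Acss2 was low, with group means of 0.55 to 3.31 CPM and 13.3 ± 18.8 CPM in EGFP-positive cDC1, where replicate 2 had 0 counts, and it shares exonic bases with 3 genes on the opposite strand.

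The enzymes that build the chain were sparse. Acaca, acetyl-CoA carboxylase and the committed step, had 5.89 and 2.94 CPM in EGFP-negative cDC1, 0 counts in both EGFP-positive cDC1 libraries, 0 and 3.03 CPM in EGFP-negative cDC2, and 2.29 and 9.41 CPM in EGFP-positive cDC2. Against a floor of 3 counts over the group, the mean of EGFP-negative cDC1 was at least 54.6-fold higher than EGFP-positive cDC1. The mean of EGFP-positive cDC2 was at least 72.3-fold higher. These bounds cover counting error only, leave out the spread between libraries, and rest on low levels. Fasn, fatty acid synthase, differed between replicates in all 4 groups, with means of 26.0 ± 21.1 and 13.2 ± 17.8 CPM in cDC1 and 7.81 ± 11.05 and 10.9 ± 11.3 CPM in cDC2, and it was at 0.613 CPM in the library where the cholesterol genes were highest.

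Chains are then lengthened and desaturated. Elovl5, which elongates polyunsaturated fatty acids (chr9:77917364-77984519), had 55.1 and 64.9 CPM in EGFP-negative cDC1, 30.2 and 56.6 CPM in EGFP-positive cDC1, 21.9 and 26.9 CPM in EGFP-negative cDC2, and 24.1 and 21.5 CPM in EGFP-positive cDC2. Each cDC1 library was above each cDC2 library, and the library with the highest cholesterol genes was here the lowest of the cDC1 libraries. Elovl6, which elongates palmitate, had 17.9 and 2.14 CPM in EGFP-negative cDC1, 3.46 and 0.070 CPM in EGFP-positive cDC1, 0 and 3.38 CPM in EGFP-negative cDC2, and 4.68 and 18.1 CPM in EGFP-positive cDC2. Both EGFP-positive cDC2 values of Elovl6 lay above those of EGFP-negative cDC2 and of EGFP-positive cDC1, and the other pairs of groups compared overlapped.

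Scd1 and Scd2 make monounsaturated fatty acids. Scd1 had 12.3 and 20.5 CPM in EGFP-negative cDC1, 54.0 and 2.18 CPM in EGFP-positive cDC1, 0 counts in both EGFP-negative cDC2 libraries, and 0 and 10.7 CPM in EGFP-positive cDC2. With a floor of 3 counts over the group, the mean of Scd1 was at least 224-fold higher in cDC1 than in cDC2 among EGFP-negative cells. That bound covers counting error only and leaves out the spread between libraries. In edgeR, which includes that spread, the adjusted p of this difference was 0.444. Scd2 had 12.1 and 22.4 CPM in EGFP-negative cDC1, 70.0 and 0.140 CPM in EGFP-positive cDC1, 14.9 and 18.7 CPM in EGFP-negative cDC2, and 29.5 and 26.8 CPM in EGFP-positive cDC2. Both desaturases were thus highest in EGFP-positive cDC1 replicate 1, and replicate 2 of that group held their lowest cDC1 levels.

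Fads1, the delta-5 desaturase of polyunsaturated fatty acids, was the reverse of Elovl5 between the subsets, with 0.047 and 7.13 CPM in EGFP-negative cDC1, 4.46 and 7.79 CPM in EGFP-positive cDC1, 14.0 and 18.2 CPM in EGFP-negative cDC2, and 13.1 and 16.1 CPM in EGFP-positive cDC2. Fads2, the delta-6 desaturase, had 12.3 ± 13.1 CPM in EGFP-positive cDC1 and group means of 0.82 to 2.47 CPM elsewhere. Srebf1 had 6.50 and 35.0 CPM in EGFP-negative cDC1, 16.5 and 13.9 CPM in EGFP-positive cDC1, 11.5 and 13.6 CPM in EGFP-negative cDC2, and 13.8 and 8.77 CPM in EGFP-positive cDC2. The values of Srebf1 lay close together apart from the EGFP-negative cDC1 replicates, and of the pairs of groups compared only the EGFP-positive subsets did not overlap. The symbol pools the transcripts of both SREBP1 isoforms.

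**Figure D3:**
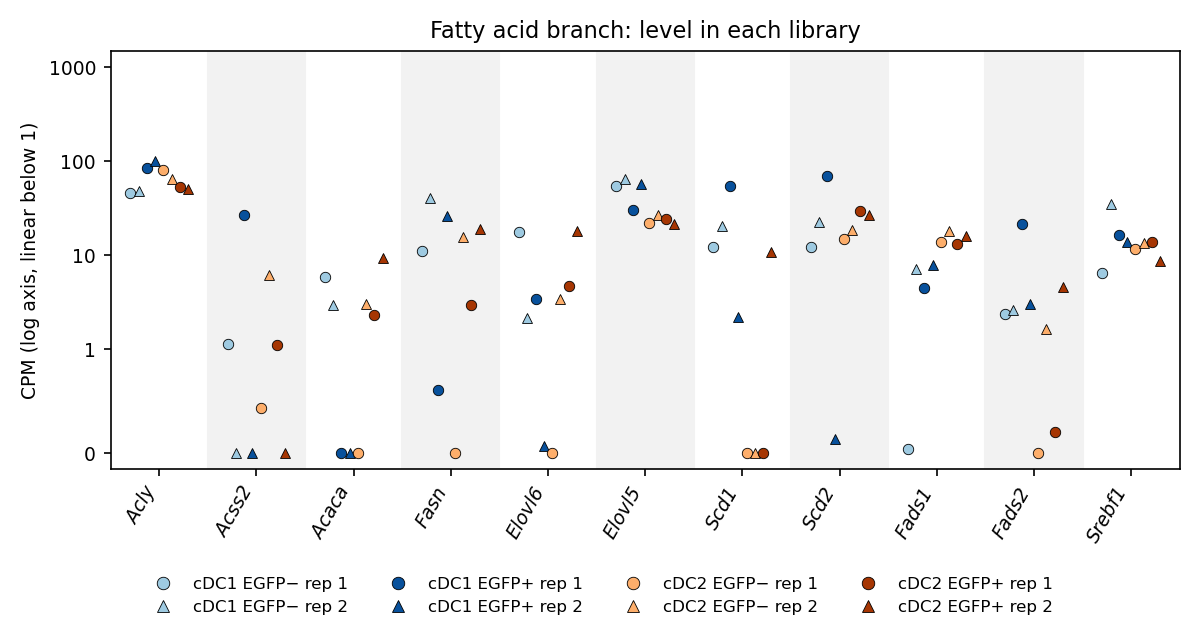
CPM of the 11 fatty acid members in each library, on a log axis that is linear below 1 CPM; circles are replicate 1 and triangles replicate 2. Acly has close values within each group, while Acss2, Acaca, Fasn, Elovl6, Scd1 and Fads2 are at 0 counts in 1 or more libraries.

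Per kilobase of merged exons, which allows genes to be compared, Fdps led the set in EGFP-positive cDC1 at 117 ± 103 RPKM and in EGFP-negative cDC1 at 42.4 ± 16.3 RPKM. In EGFP-negative cDC2 the leading level was that of Pmvk at 29.2 ± 4.32 RPKM, ahead of Ebp at 21.9 ± 1.998 and Fdps at 18.2 ± 2.28 RPKM. Of the fatty acid genes, Elovl5 led in EGFP-negative cDC1 at 17.0 ± 1.96 RPKM, and Acly led in the other groups, at 17.4 ± 2.05 RPKM in EGFP-positive cDC1, 13.7 ± 2.02 RPKM in cDC2 without EGFP and 9.81 ± 0.24 RPKM in cDC2 with it.

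The first comparison asked how EGFP-positive cDC1 differ from EGFP-negative cDC1. Of the 20 cholesterol members, 18 had a positive log2 fold change, with a median of 1.56 against −0.04 over all genes tested, and Mvd, Lss, Mvk and Insig1 were higher in both EGFP-positive libraries than in both EGFP-negative ones. Srebf2 was also higher without overlap, and Ebp and Sc5d were lower. In the fatty acid branch 6 of 11 were positive, with a median of 0.77 that was −0.57 without EGFP-positive cDC1 replicate 1. By edgeR's quasi-likelihood test with Benjamini-Hochberg adjustment over all genes, 0 of 31 members passed an adjusted p of 0.05, as did 0% of all genes. At an unadjusted p under 0.05 there were 5 members against 12.7% of all genes, and DESeq2 called 5 against 14.3%: Mvk, Mvd, Lss and Acly higher and Acaca lower.

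Of single members in cDC1, the log2 fold change of Mvd was 2.698 ± 0.93 (adjusted p = 0.313 in edgeR), Lss 3.37 ± 1.28 (adjusted p = 0.343), Acly 0.97 ± 0.35 (adjusted p = 0.332) and Ebp −1.50 ± 0.56 (adjusted p = 0.338). Groups did not overlap for 7 members that were higher and 3 that were lower in EGFP-positive cDC1, against 11.5% and 24% of all genes. Without EGFP-positive cDC1 replicate 1 the cholesterol median was −0.011, and without replicate 2 it was 2.38, each then resting on a lone library that was assumed to vary like the other groups. Without replicate 1 the log2 fold changes of Mvd, Fdps and Scd2 were 1.34, 0.053 and −6.87. Without replicate 2 they were 3.39, 2.17 and 2.02.

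In cDC2 the same question gave no shared direction over the cholesterol branch. Its median log2 fold change of EGFP-positive against EGFP-negative cDC2 was 0.02, with 10 of 20 members positive, and that of the fatty acid branch was 0.48, with 6 of 11 positive, against 0.08 over all genes tested. The 17 cholesterol enzymes alone had a median of −0.35 with 7 positive, and the 3 genes of sterol sensing and transport 0.15 with 3 positive. With each library left out in turn, the cholesterol median ran from −0.35 to 0.17. The fatty acid median was −0.24 without EGFP-negative cDC2 replicate 1. The fractions did not overlap for 3 members that were higher (Srebf2, Scd2 and Elovl6) and 4 that were lower (Fdft1, Fdps, Pmvk and Acly) in EGFP-positive cDC2, against 22.6% and 19.2% of all genes. In edgeR 0 of 31 members and 0% of genes passed, 1 member and 2.63% of genes had an unadjusted p under 0.05, and DESeq2 called 0 members and 1.17% of genes. Srebf2 was at 12.6 ± 0.35 and 23.4 ± 1.54 CPM in EGFP-negative and EGFP-positive cDC2, a log2 fold change of 0.89 ± 0.44 with an adjusted p of 1 in edgeR and higher in 2 of 2 libraries. Fdft1 was at 24.5 ± 1.20 and 9.67 ± 3.18 CPM (−1.34 ± 0.87, adjusted p = 1).

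Whether the EGFP difference itself differed between the subsets was tested as an interaction. The median interaction was 1.59 on the log2 scale over the cholesterol branch, with 18 of 20 members positive, and −0.29 over the fatty acid branch, with 5 of 11 positive, against −0.20 over all genes tested. No member passed in edgeR (0 of 31, and 0% of genes), 3 members and 10.4% of genes had an unadjusted p under 0.05, and DESeq2 called 1 member, Acly, and 7.74% of genes. Acly had an interaction of 1.45 ± 0.50 (adjusted p = 0.427 in edgeR, 0.00238 in DESeq2), with the order of the fractions reversed between the subsets, as its levels above show. Without EGFP-positive cDC1 replicate 1 the cholesterol median was −0.16, and without EGFP-negative cDC1 replicate 2 the fatty acid median was 0.80.

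The spread inside EGFP-positive cDC1 was itself unlike that of the other groups. Of the 20 cholesterol members 17 were higher in replicate 1 than in replicate 2, with a median log2 ratio of (CPM + 1) of 2.15, and 13 differed more than 4-fold (65%, against 33.3% of all genes tested). Of the 11 fatty acid members 6 were higher in replicate 1, with a median of 0.24, and 6 differed more than 4-fold (54.5%), in both directions. In the other groups the cholesterol median lay between −0.24 and 0.34, and 4 of 20 members differed more than 4-fold in EGFP-negative cDC1 (15.4% of all genes), 2 in cDC2 without EGFP (8.63%) and 0 in cDC2 with it (8.44%). The fatty acid counts in those groups were 3, 4 and 3 of 11.

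**Figure D4:**
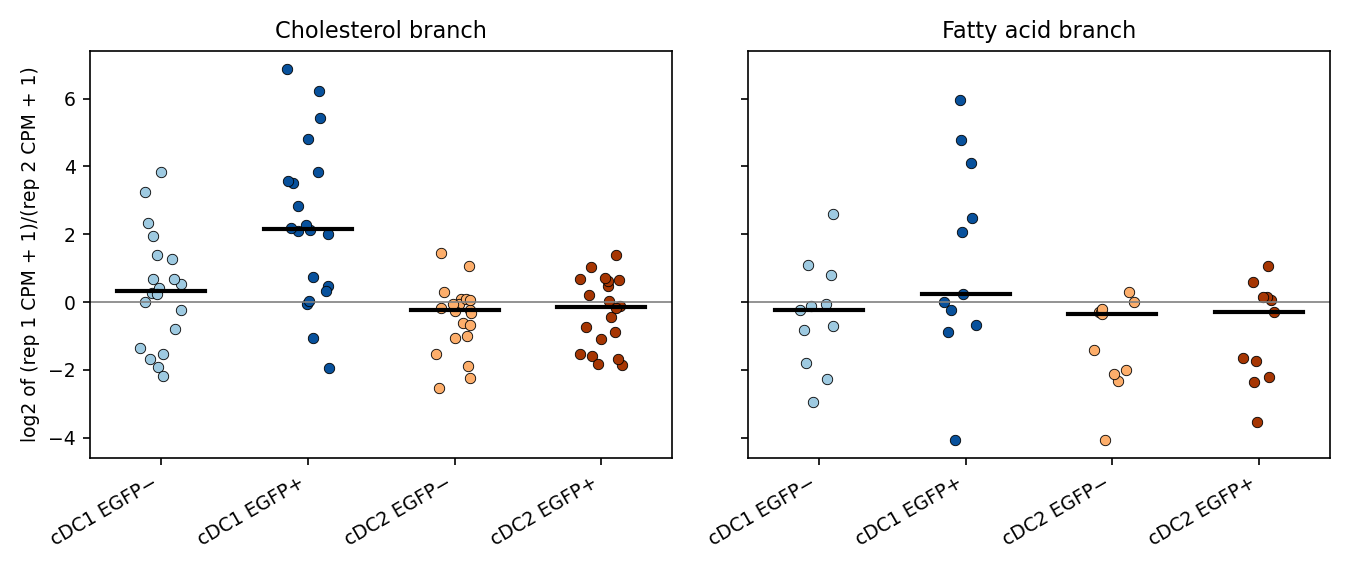
Log2 ratio of (CPM + 1) in replicate 1 to that in replicate 2 for each member, by group, for the cholesterol branch (left) and the fatty acid branch (right); points are genes and bars are medians. The cholesterol median is 2.15 in EGFP-positive cDC1 and between −0.24 and 0.34 in the other groups; the fatty acid medians lie close to 0 with a wide spread.

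The subsets were then compared. The macrophage and monocyte list also differed between them, as given above, and its part in the subset differences of the members was not tested. Among EGFP-negative cells the cholesterol median of cDC1 against cDC2 was 0.15 (13 of 20 positive) and the fatty acid median 1.30 (8 of 11 positive), against −0.04 over all genes tested. Subsets did not overlap for 6 members that were higher and 4 that were lower in cDC1, against 21.9% and 26.5% of all genes. In edgeR 0 of 31 members passed, against 0.36% of genes, 0.114% being higher in cDC1, and 3 members and 9.58% of genes had an unadjusted p under 0.05. DESeq2 called 2 members, Srebf2 and Scd1, both higher in cDC1, and 8.71% of genes. The log2 fold change of Srebf2 was 2.04 ± 0.46 (adjusted p = 0.161 in edgeR, higher in 2 of 2 libraries) and that of Elovl5 1.30 ± 0.51 (adjusted p = 0.488), while Insig1 was lower in both cDC1 libraries (−2.06 ± 1.24, adjusted p = 0.645). With each library left out in turn, the log2 fold change of Srebf2 stayed between 1.91 and 2.16. The EGFP-positive libraries enter this comparison only through the choice of genes tested, the scaling and the shared estimate of the spread.

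Among EGFP-positive cells 19 of 20 cholesterol members were positive for cDC1 against cDC2, with a median of 1.82, and 8 of 11 fatty acid members, with a median of 0.43, against −0.30 over all genes tested. Subsets did not overlap for 12 members that were higher and 4 that were lower in cDC1, against 13.7% and 33.2% of all genes. In edgeR 0 of 31 members passed, against 0.228% of genes, 0.114% being higher in cDC1, and 8 members and 15.9% of genes had an unadjusted p under 0.05. DESeq2 called 9 members and 16.5% of genes, with Fdps, Fdft1, Sqle, Lss, Mvd, Mvk, Srebf2 and Acly higher and Acaca lower in cDC1. The log2 fold change of Fdps was 3.08 ± 0.68 (adjusted p = 0.121 in edgeR), that of Srebf2 1.41 ± 0.45 (adjusted p = 0.212) and that of Fdft1 2.66 ± 0.91 (adjusted p = 0.231). The cholesterol median was 0.14 without EGFP-positive cDC1 replicate 1 and 2.37 without replicate 2, and the fatty acid median was −0.90 without replicate 1. The log2 fold changes of Fdps and Fdft1 were 1.67 and 1.22 without replicate 1, and 3.79 and 3.37 without replicate 2. This comparison shares its EGFP-positive cDC1 libraries with the first one.

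Over both EGFP fractions, with 4 libraries a side, Srebf2, Fdps and Elovl5 were the members whose cDC1 libraries all exceeded their cDC2 libraries (3 of 31, against 3.96% of all genes), and Fads1 was the 1 member with the opposite order (against 8.56%). Srebf2 averaged 57.0 ± 6.99 CPM over the cDC1 libraries and 17.98 ± 6.30 CPM over the cDC2 libraries (SD, n = 4), a log2 fold change of 1.73 ± 0.37 with an adjusted p of 0.0634 in edgeR and 4.34e-11 in DESeq2. Fdps was at 335 ± 312 and 67.3 ± 12.5 CPM (2.15 ± 0.56, adjusted p = 0.122), and Elovl5 at 51.7 ± 14.96 and 23.6 ± 2.47 CPM (1.11 ± 0.39, adjusted p = 0.251). Fads1 was at 4.86 ± 3.52 and 15.3 ± 2.29 CPM (−1.71 ± 1.28, adjusted p = 0.666). None of the 4 passed in the test over all genes.

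In that comparison 0 of 31 members passed in edgeR, against 1.32% of genes, 0.816% being higher in cDC1. At an unadjusted p under 0.05 there were 3 members and 13.5% of genes, and DESeq2 called Srebf2, Fdps, Elovl5 and Scd1 with 12.3% of genes. Over the alternative settings the adjusted p of Srebf2 ran from 4.34e-11 to 0.254, and it was 0.0359 where only genes with at least 10 CPM in 2 libraries were tested. The log2 fold change of Srebf2 stayed between 1.61 and 1.81 over these settings. The cholesterol median was 0.9995 with 18 of 20 positive, and 0.26 without EGFP-positive cDC1 replicate 1, and the fatty acid median 0.58, against −0.28 over all genes tested. Without that library Fdps had a log2 fold change of 1.40 and an adjusted p of 0.0447.

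**Figure D5:**
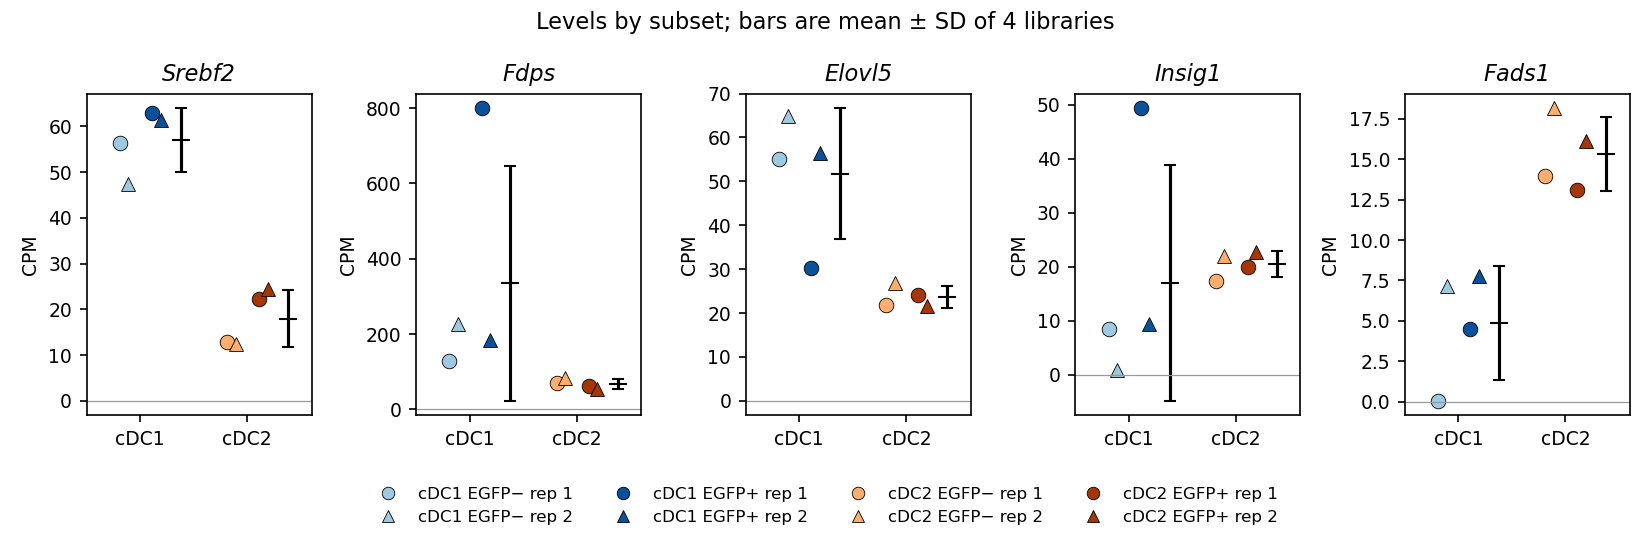
CPM of Srebf2, Fdps, Elovl5, Insig1 and Fads1 in each library by subset; circles are replicate 1, triangles replicate 2, and bars the mean ± SD of 4 libraries, on linear axes that differ between genes. All cDC1 libraries exceed all cDC2 libraries for Srebf2, Fdps and Elovl5, the order is reversed for Fads1, and Insig1 overlaps around a narrow cDC2 mean of 20.5 ± 2.41 CPM.

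For EGFP over both subsets, 0 of 31 members and 0% of genes passed in edgeR, 0 members and 5.22% of genes had an unadjusted p under 0.05, and DESeq2 called 0 members and 2.72% of genes. No member separated the 4 EGFP-positive from the 4 EGFP-negative libraries, against 0.965% of genes higher and 2% lower. The cholesterol median was 0.79 with 17 of 20 positive, and −0.38 without EGFP-positive cDC1 replicate 1, against −0.05 over all genes tested. The fatty acid median was 0.24 with 7 of 11 positive, and −0.17 without EGFP-negative cDC1 replicate 1.

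Other genes of the same pathways, on lists that leave out the members, gave 0 calls in edgeR in any of the 7 comparisons for 18 tested genes of sterol synthesis and SREBP control and for 16 of fatty acid synthesis. Summed over the 19 listed sterol genes in the table, EGFP-positive cDC1 replicate 1 did not stand out, at 357 CPM within a range of 307 to 434 CPM over the 8 libraries. Summed over the 24 listed fatty acid genes it did, at 1507 CPM against 655 to 1079 CPM in the other 7, with Tecr, the trans-enoyl reductase of chain elongation, at 386 CPM against 46.4 to 154 CPM.

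Of 13 genes of sterol export and its LXR regulators, 2 had a positive fold change for cDC1 against cDC2 over both fractions. The median log2 fold change over the 13 was −1.41, against −0.28 over all genes tested. In edgeR 1 of the 13 passed, against 1.32% of all genes. The 1 gene called was Ch25h, which makes 25-hydroxycholesterol, an inhibitor of SREBP processing, at 0.093, 0, 0 and 0 CPM in the cDC1 libraries and 8.35, 13.5, 91.1 and 14.6 CPM in the cDC2 libraries (adjusted p = 0.0274 in edgeR). The adjusted p of Ch25h was 0.232 without EGFP-positive cDC2 replicate 1, 0.0769 without EGFP-negative cDC1 replicate 2 and 0.0655 without EGFP-negative cDC2 replicate 2. Abca1, the cholesterol exporter, ran from 0.044 to 22.9 CPM over the cDC1 libraries and from 78.3 to 212 CPM over the cDC2 libraries (−4.77 ± 1.37, adjusted p = 0.195). The macrophage and monocyte list moved with these genes, as given above, and its part in the difference was not tested.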

How the data were processed

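RNA of 8 sorted samples was measured by RNA-seq. Per the labels' protocols, a published low-input method gave full-length cDNA, followed by a KAPA library kit. Per the submitters' processing notes, Trimmomatic 0.39, STAR 2.7.5c and Cufflinks 2.2.1 were used with mm10; how reads were counted, on which annotation and whether by strand is not given in the sources used here. Raw read counts, whole numbers per gene symbol, are what the authors deposited, with 0 columns left without a sample. Depth was 17869441 to 22195681 counts a library.

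The main test of the counts was that of edgeR 4.0.16 in R 4.3.3 (filterByExpr on the 4 groups, TMM, glmQLFit with robust estimation, glmQLFTest, Benjamini-Hochberg over the 11394 genes left, threshold 0.05). All 8 libraries entered a model with 1 mean per group (5 contrasts) or with subset and EGFP as additive terms (2 contrasts). The SE of a log2 fold change is its size over the root of F. The common dispersion was 1.28. DESeq2 1.42.0, RLE scaling, counts without Rn45s, other filters, no robust estimation, a replicate block, fits of the compared libraries alone and each library left out were the alternatives. RPKM and coordinates used GENCODE M21 (GRCm38). The fits were also run on simulated data in which a gene had the same spread in every group. That run cannot show how they behave with EGFP-positive cDC1, whose replicates differed more than those of the other groups. The members and lists were chosen with earlier results of these data known. Full levels are given for the 4 members of smallest p in each branch and comparison with a mean of at least 5 CPM, and for Srebf1, Srebf2 and Insig1.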

Additional observations from a re-analysis of the deposited data

Results flagged for a closer look

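Within the 4 libraries of each subset or of each EGFP fraction, a library was singled out where its gap to the nearest of the others was a larger share of the whole range than Dixon's 95% critical value for 4 values. This was run on 76 sets. A chance rate of about 1 in 20 would hold for independent, normally distributed values. Most of these genes were picked for small p in the same data, and the sets share libraries. The number of cases therefore cannot be set against that rate. There were 11 cases, of which 9 were EGFP-positive cDC1 replicate 1.

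Among the cDC1 libraries, EGFP-positive cDC1 replicate 1 stood apart for Fdft1 (99.8 CPM, next 23.0 CPM), Fdps (800.1 CPM, next 227 CPM), Hmgcs1 (286 CPM, next 40.8 CPM), Sqle (455 CPM, next 51.2 CPM) and the cholesterol sum (3018 CPM, next 689 CPM). Among the EGFP-positive libraries the same library stood apart for Fdft1 (99.8 CPM, next 22.5 CPM), Hmgcs1 (286 CPM, next 66.5 CPM), Sqle (455 CPM, next 39.2 CPM) and the cholesterol sum (3018 CPM, next 689 CPM). These values share 1 library and are not independent of each other.

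Among the cDC2 libraries Scd1 was at 10.7 CPM in EGFP-positive cDC2 replicate 2 and at 0 counts in the other 3. Among the EGFP-negative libraries Fdft1 was at 8.20 CPM in cDC1 replicate 2, with the next lowest at 23.0 CPM.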

How the results depend on the processing

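The comparisons are named by what they compare: EGFP in cDC1, EGFP in cDC2, subset in EGFP-negative cells, subset in EGFP-positive cells, the interaction, subset over both fractions and EGFP over both subsets. DESeq2 called 1565, 150, 951, 1849, 887, 1407 and 311 genes in that order and 5, 0, 2, 9, 1, 4 and 0 members. Without a low-count filter edgeR called 57, 112, 153, 29 and 236 genes for EGFP in cDC1, subset in EGFP-negative cells, subset in EGFP-positive cells, the interaction and subset over both fractions. With at least 10 CPM in 2 libraries, 1 member (Srebf2) passed for subset over both fractions. Without robust estimation the counts for subset in EGFP-negative cells, in EGFP-positive cells and over both fractions were 25, 12 and 99 genes. Fits of the compared libraries alone gave 292 and 0 genes for subset in EGFP-negative and EGFP-positive cells. RLE scaling and leaving out Rn45s moved none of these counts by over 1.5 times, and RLE scaling put the median of all genes at −0.20 in place of −0.30 for subset in EGFP-positive cells and at −0.059 in place of −0.20 for the interaction.

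With the replicate number as a replicate block, subset in EGFP-negative cells, in EGFP-positive cells and over both fractions gave 3, 0 and 82 genes, and 0 members passed in any comparison. The deviations of same-numbered libraries from their group means correlated between −0.22 and 0.04 over 11394 genes, which gave no sign that the numbers pair the samples, with only 2 a group. The titles carry 1 code for all libraries numbered 1 and another for all numbered 2, and the labels do not say what these mean, so pairing by animal or batch remains possible. As the EGFP-positive groups gave the value of −0.22, their crossed pairing was tried after seeing the data, and gave 8 genes and 0 members for subset in EGFP-positive cells.

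With each library left out in turn, genes called ranged from 0 to 1050 for EGFP in cDC1, 1 to 465 for subset in EGFP-negative cells, 1 to 1273 for subset in EGFP-positive cells, 0 to 668 for the interaction and 50 to 277 for subset over both fractions. Members called ranged from 0 to 3, 0 to 1, 0 to 4, 0 to 2 and 0 to 1. The cholesterol median ranged from −0.011 to 2.38 for EGFP in cDC1, 0.14 to 2.37 for subset in EGFP-positive cells, −0.16 to 2.36 for the interaction, 0.26 to 1.35 for subset over both fractions and −0.38 to 1.09 for EGFP over both subsets, each lowest without EGFP-positive cDC1 replicate 1. For EGFP in cDC2 the cholesterol median ranged from −0.35 to 0.17, and for subset in EGFP-negative cells from −0.13 to 0.49. The fatty acid medians moved by less than 1 SD between replicates, but that SD was 1.61 on the log2 scale (0.64 for cholesterol). The sign of the fatty acid medians turned in 5 comparisons. They ranged from −0.57 to 1.20 for EGFP in cDC1, −0.24 to 0.91 for EGFP in cDC2, 0.49 to 1.45 for subset in EGFP-negative cells, −0.90 to 0.95 for subset in EGFP-positive cells, −1.23 to 0.80 for the interaction, 0.24 to 0.86 for subset over both fractions and −0.17 to 0.48 for EGFP over both subsets.

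The direction of 8 single log2 fold changes reversed, given here with the other end of their range over the libraries left out. Without EGFP-negative cDC1 replicate 2, Sqle was −0.37 (to 3.20) for subset in EGFP-negative cells and Srebf1 −0.086 (to 0.86) for subset over both fractions. Without EGFP-positive cDC1 replicate 1, Scd2 was −6.87 (to 2.02) for EGFP in cDC1 and −0.78 (to 1.28) for EGFP over both subsets. Without the same library, Scd1 was −1.29 (to 12.14) for subset in EGFP-positive cells, and Elovl5 0.021 (from −0.88) for the interaction. Without EGFP-positive cDC2 replicate 2, Scd1 was 0 (to 10.7) for EGFP in cDC2 and 0.78 (from −12.62) for the interaction. The cause was not tested. With members at 0 in a group set to their bound, the branch medians of the 4 pairwise comparisons did not change.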
